A study of Sus scrofa with 4 samples.

Results

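Intercalated cells are the acid-base cells of the renal connecting tubule and collecting duct. Type A cells pump protons into the urine through a vacuolar proton ATPase and return bicarbonate to the blood, type B cells secrete bicarbonate in exchange for chloride, and a forkhead transcription factor, FOXI1, is required for their differentiation in mice. The genes described here are 10 such transporters and regulators chosen by symbol, of which 9 were found among 26466 gene symbols of the deposited counts: the anion exchangers SLC26A4, SLC4A1 and SLC4A9, the proton pump subunits ATP6V1B1, ATP6V0D2 and ATP6V1G3, the transcription factors FOXI1 and HMX2, and the ammonia channel RHCG. The remaining gene, the carbonic anhydrase CA2, had no matching symbol and was not analysed here. The genes were picked with counts and ratios of these same 4 libraries in view, so their values are given as a description without a test.

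Gene expression was measured by RNA sequencing of pig kidney in 4 libraries, 1 in each of 4 groups. The first group was a kidney of a GalT-/-;hCD39;hCD46;hCD55;TBM pig 6 weeks after transplantation into a non-human primate, and the second a kidney of a GalT-/-;hCD39;hCD55 pig 4 weeks after transplantation. The remaining groups were untransplanted kidneys of the same genotypes. Every group thus carries the loss of the galactosyltransferase that makes the alpha-Gal antigen together with human CD39 and CD55, and the genotype with CD46, named TBM below, carries human CD46 and thrombomodulin as well, while the other is named CD39/CD55. Transplanted kidneys are called grafts. The series set out to choose the donor genotype that better eases rejection. The sources used here do not give age, sex, the promoters of the transgenes, drugs given to the recipients or the sampled region of the kidney. Weeks after transplantation, recipient and genotype cannot be told apart between the transplanted kidneys.

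Total counts were 10346863 in the TBM graft, 11566041 in the CD39/CD55 graft, 13226372 in the untransplanted TBM kidney and 14092905 in the untransplanted CD39/CD55 kidney. Levels below are scaled CPM, counts divided by a library total that edgeR's TMM factor adjusted, and a floor of 3 counts, the one-sided 95% limit that a count of 0 allows, corresponds to 0.219 to 0.29 scaled CPM. Intervals are exact 95% intervals of counting error only, since a group of 1 library has no replicate check. A ratio between 2 libraries was called when it was at least 2-fold and its interval excluded 1. GGTA1P, the pig galactosyltransferase gene, had 291 to 316 counts in the 4 libraries. As all groups carry its loss, it gives no check of the labels. The 10 proximal tubule markers examined summed to 3110 and 6151 scaled CPM in the TBM and CD39/CD55 grafts, against 12837 and 11371 in the untransplanted kidneys of the same genotypes. In bulk tissue, fewer cells of a type and less RNA per cell cannot be told apart.

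All 9 genes passed the minimum of 10 counts in at least 1 library. In the TBM pair, 3 were called higher and 3 lower in the transplanted than in the untransplanted kidney, where 15.9% and 16.3% of all 18168 genes were called higher and lower. In the CD39/CD55 pair, 3 were called higher and 2 lower, beside 13.2% and 13.7% of all genes. The median log2 ratio of the 9 genes was 0.36 in TBM and 0.51 in CD39/CD55, beside 0.01 and 0.02 over all genes. These counts follow from libraries that were used to choose the genes. FOXI1 was the member called higher in both pairs, and none was called lower in both.

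**Figure D1:**
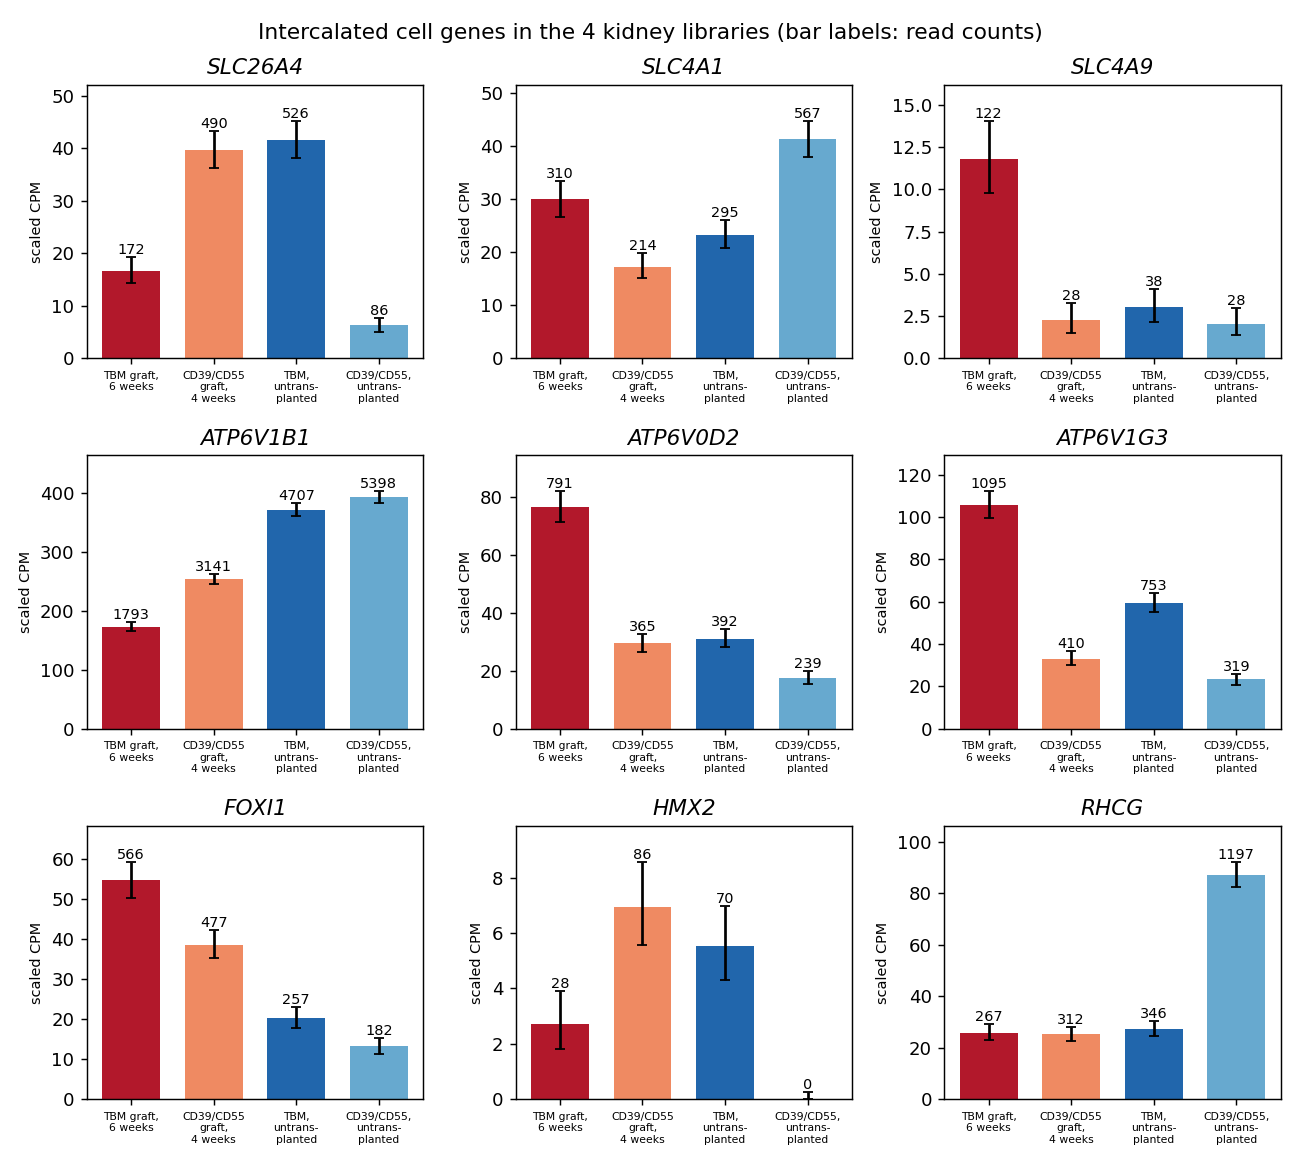
Level of each gene in scaled CPM (y axis, from 0) in the 4 libraries (x axis), with 1 bar per library, its exact 95% Poisson interval as the error bar, and the read count printed above it. SLC26A4, SLC4A9, ATP6V0D2, ATP6V1G3, FOXI1 and HMX2 were lowest in the untransplanted CD39/CD55 kidney, SLC4A9 there within counting error of the next level. SLC4A1, ATP6V1B1 and RHCG were highest in that kidney. SLC4A9, ATP6V0D2, ATP6V1G3 and FOXI1 were highest in the TBM graft.

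SLC26A4 (chromosome 9, 107365121 to 107431065, Sscrofa11.1) encodes pendrin, the apical chloride-bicarbonate exchanger of type B and non-A, non-B intercalated cells. It had 172 counts (16.6 scaled CPM) in the TBM graft and 490 (39.6) in the CD39/CD55 graft, against 526 (41.6) and 86 (6.27) in the untransplanted TBM and CD39/CD55 kidneys. The high libraries were thus the CD39/CD55 graft and the untransplanted TBM kidney, whose levels differed by a log2 ratio, untransplanted TBM over CD39/CD55 graft, of 0.07 (-0.11 to 0.25), and the states overlapped. After transplantation it was 2.5-fold lower in TBM (log2 ratio -1.32, -1.58 to -1.07) and 6.29-fold higher in CD39/CD55 (2.65, 2.33 to 3.01). The widest gap between any libraries was that between the untransplanted kidneys, 6.60-fold higher in TBM.

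SLC4A1 (chromosome 12, 18957813 to 18975266) encodes the anion exchanger AE1 of the basolateral membrane of type A cells and of the red cell membrane. Its counts were 310 in the TBM graft and 214 in the CD39/CD55 graft, against 295 and 567 in the untransplanted TBM and CD39/CD55 kidneys. In scaled CPM these were 30.0 and 17.3 after transplantation, against 23.3 and 41.3 untransplanted. The untransplanted CD39/CD55 kidney was highest, the transplanted kidney of that genotype was lowest, and each neighbouring pair in the order of levels was separated beyond counting error. The log2 ratio of transplanted over untransplanted kidney was 0.36 (0.13 to 0.60) in TBM, which was not called, and -1.25 (-1.49 to -1.03) in CD39/CD55.

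Red cells also make AE1, so erythroid genes were read beside it. HBB, a beta globin gene, had 46 and 3 counts in the TBM and CD39/CD55 grafts, against 2114 and 110 in the untransplanted ones. It was highest in the untransplanted TBM kidney. The red cell membrane skeleton genes EPB42 and SPTB, singled out after their values were seen, were highest in the untransplanted CD39/CD55 kidney, as SLC4A1 was. EPB42 had 28 and 23 counts in the TBM and CD39/CD55 grafts, against 48 and 62 in the untransplanted ones. SPTB had 24 and 36, against 13 and 45. Neither top level differed from the next lower one beyond counting error. ALAS2 (20 and 20 counts, against 33 and 12), HEMGN (70 and 62, against 41 and 29) and TFRC (118 and 58, against 70 and 28) were instead lowest in the untransplanted CD39/CD55 kidney. The part of red cells in the SLC4A1 values was not tested. Of 11 erythroid markers measured, which summed to 30.1 and 16.9 scaled CPM in the TBM and CD39/CD55 grafts and 184 and 21.2 in the untransplanted ones, the erythroid transcription factor genes KLF1 and GATA1 had at most 2 counts in any library. A long noncoding RNA locus, LOC110255996 (chromosome 12, 18972623 to 18978073), overlaps SLC4A1 and had 514 and 364 counts in the TBM and CD39/CD55 grafts, against 374 and 731 in the untransplanted ones. The sources used here do not say whether counting used strand, so reads of the pair cannot be told apart and the SLC4A1 values are uncertain to that extent.

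SLC4A9 (chromosome 2, 142128502 to 142143100) encodes AE4, a basolateral transporter of type B cells in mice. It had 122 counts (11.8 scaled CPM) in the TBM graft and 28 (2.26) in the CD39/CD55 graft, against 38 (3.004) and 28 (2.04) in the untransplanted TBM and CD39/CD55 kidneys. Only the TBM graft library stood apart, 3.88-fold above its untransplanted counterpart (log2 ratio 1.96, 1.44 to 2.54), and of the other 3 levels no neighbours differed beyond counting error. SLC4A9 and SLC26A4 both mark type B cells, yet in TBM one was called higher and the other lower after transplantation. SLC4A9 lies within the long noncoding RNA locus LOC110259509 (chromosome 2, 142120676 to 142166104), which had 290 and 180 counts in the TBM and CD39/CD55 grafts, against 123 and 107 in the untransplanted ones, so its values carry the same uncertainty.

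The share of SLC26A4 in the summed counts of SLC26A4 and SLC4A1 sets a type B gene against a type A gene within a library and does not depend on scaling. It was 35.7% (31.4% to 40.1%, Clopper-Pearson) in the TBM graft, against 64.1% (60.7% to 67.4%) in the untransplanted kidney of that genotype. In CD39/CD55 it was 69.6% (66.1% to 73.0%) in the transplanted kidney, against 13.2% (10.7% to 16.01%) in the untransplanted one. Transplanted kidneys thus had the lower share in one genotype and the higher share in the other.

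**Figure D2:**
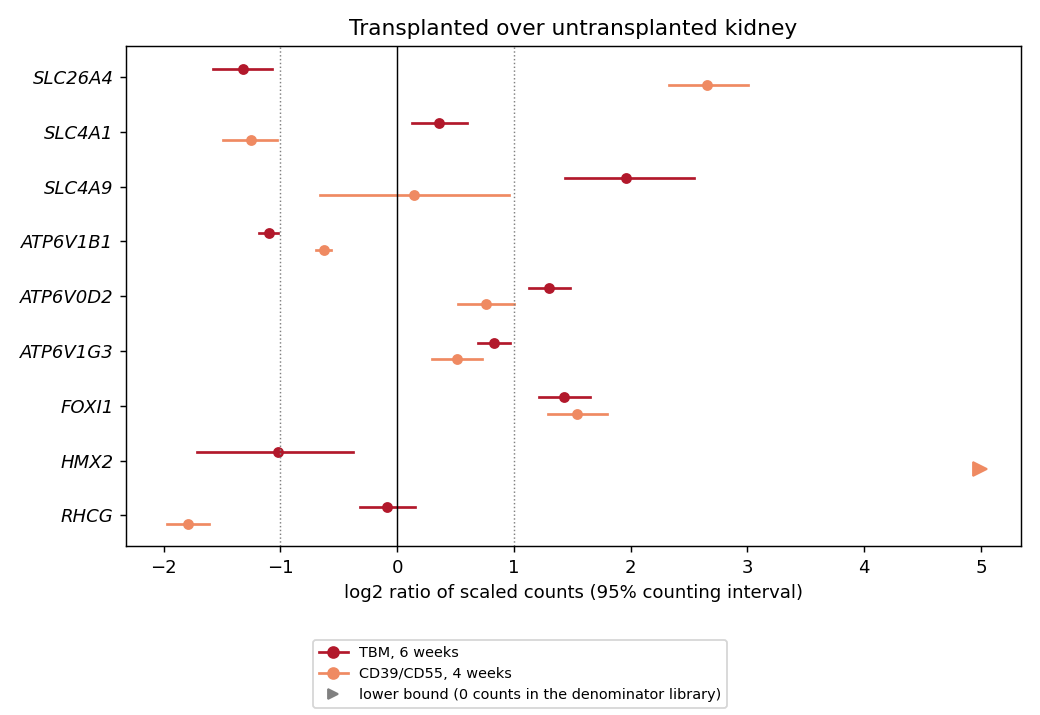
Log2 ratio of scaled counts of transplanted over untransplanted kidney (x axis) for each gene (y axis), with exact 95% counting intervals as lines; dotted lines mark 2-fold and the arrowhead is a lower bound against 3 counts. FOXI1 was called higher in both genotypes, while SLC26A4 (log2 ratios of -1.32 and 2.65) and HMX2 lay on opposite sides of 0.

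ATP6V1B1 (chromosome 3, 71560102 to 71591885) encodes the B1 subunit of the catalytic V1 sector of the proton pump, the form used by intercalated cells, whose loss in humans causes distal renal tubular acidosis with deafness. It had 1793 counts (173 scaled CPM) in the TBM graft and 3141 (254) in the CD39/CD55 graft, against 4707 (372) and 5398 (393) in the untransplanted TBM and CD39/CD55 kidneys. Both transplanted kidneys were below both untransplanted ones, and the states did not overlap. The log2 ratio was -1.10 (-1.18 to -1.02) in TBM and -0.63 (-0.70 to -0.57), short of 2-fold, in CD39/CD55.

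ATP6V0D2 (chromosome 4, 50694188 to 50749373) encodes the d2 subunit of the membrane-bound V0 sector, found in kidney and osteoclasts. It had 791 counts (76.5 scaled CPM) in the TBM graft and 365 (29.5) in the CD39/CD55 graft, against 392 (31.0) and 239 (17.4) in the untransplanted TBM and CD39/CD55 kidneys. It was higher after transplantation in both genotypes, by a log2 ratio of 1.30 (1.13 to 1.48) in TBM and 0.76 (0.52 to 1.002) in CD39/CD55, the second not called. Across genotypes the states overlapped, since the CD39/CD55 graft and the untransplanted TBM kidney did not differ beyond counting error. Of 13 osteoclast and macrophage markers, DCSTAMP had at most 2 counts and OCSTAMP at most 10 in any library, and C1QC, a macrophage complement gene, had none in either transplanted kidney. ACP5, the tartrate-resistant acid phosphatase gene, and CTSK, the cathepsin K gene, had their highest levels in the TBM graft. ACP5 had 90 and 50 counts in the TBM and CD39/CD55 grafts, against 55 and 18 in the untransplanted ones. Its scaled levels had the same order as those of ATP6V0D2. CTSK had 869 and 479 counts in the TBM and CD39/CD55 grafts, against 510 and 582 in the untransplanted ones. Its log2 ratios of transplanted over untransplanted kidney were 1.06 in TBM, called higher, and -0.13 in CD39/CD55. NFATC1, with 65 and 113 counts against 69 and 67 in the same order, was highest in the CD39/CD55 graft. CALCR (11 and 8, against 10 and 19) and MMP9 (1 and 1, against 1 and 7) were highest in the untransplanted CD39/CD55 kidney. The part of such cells in the ATP6V0D2 values was not tested. Those 13 summed to 108 and 58.2 scaled CPM in the TBM and CD39/CD55 grafts, against 97.7 and 102 in the untransplanted ones.

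ATP6V1G3 (chromosome 10, 21371302 to 21394817) encodes the G3 subunit of the V1 stalk, which is restricted largely to kidney. Its counts were 1095 (106 scaled CPM) in the TBM graft and 410 (33.1) in the CD39/CD55 graft, against 753 (59.5) and 319 (23.2) in the untransplanted TBM and CD39/CD55 kidneys. Here the libraries were ordered by genotype first: both TBM kidneys were above both CD39/CD55 kidneys, and within each genotype the transplanted kidney was the higher. The log2 ratios of transplanted over untransplanted kidney were 0.83 (0.70 to 0.97) and 0.51 (0.30 to 0.73) in TBM and CD39/CD55, neither called. ATP6V1B1 and ATP6V1G3, which belong to the same V1 sector, therefore had ratios of opposite sign in both genotypes.

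The restricted subunits were also set against their widely expressed paralogs within each library. ATP6V1G3 made up 33.1% (31.5% to 34.8%) of its summed counts with ATP6V1G1 in the TBM graft, against 14.4% (13.5% to 15.4%) in the untransplanted one, and 10.9% (9.92% to 11.9%) in the CD39/CD55 graft, against 4.93% (4.42% to 5.49%) in the untransplanted one. For ATP6V0D2 with ATP6V0D1 the shares were 54.3% and 36.4% in the transplanted and untransplanted TBM kidneys, and 32.4% and 13.99% in the transplanted and untransplanted CD39/CD55 kidneys. ATP6V0A4, the kidney a4 subunit and no member of the set, had 1627 and 940 counts in the TBM and CD39/CD55 grafts, against 652 and 862 in the untransplanted ones. Its log2 ratio of transplanted over untransplanted kidney was 1.61 in TBM, called higher, and 0.27 in CD39/CD55, not called. The share of ATP6V0A4 with ATP6V0A1 was 72.5% and 33.5% in the transplanted and untransplanted TBM kidneys, and 52.1% and 13.7% in the CD39/CD55 ones. ATP6V1C2, a kidney form of the C subunit, had a share with ATP6V1C1 of 71.4% and 55.3% in the transplanted and untransplanted TBM kidneys, and of 64.5% and 61.8% in the CD39/CD55 ones. In these 4 pairs, named after their values were seen, the transplanted kidney had the higher share in both genotypes. For ATP6V1C2 in CD39/CD55 the intervals of the shares overlapped (62.7% to 66.3%, against 60.2% to 63.3%). The log2 ratio of ATP6V1C2 itself was -0.29 (-0.37 to -0.20) in that genotype.

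The denominators moved as well. ATP6V1G1 had 2209 and 3351 counts in the TBM and CD39/CD55 grafts, against 4476 and 6150 in the untransplanted ones, and ATP6V0A1 had 617 and 865, against 1294 and 5443. In the same order, ATP6V0D1 had 665 and 761, against 686 and 1469, and ATP6V1C1 had 722 and 1001, against 1344 and 1524. The untransplanted CD39/CD55 kidney held the most ATP6V0A1. The share of ATP6V1B1 with ATP6V1B2 did not follow the other subunits: it was 86.2% in the TBM graft, against 93.7% in the untransplanted one, and 92.1% in the CD39/CD55 graft, against 89.5% in the untransplanted one. Shares of counts are not shares of molecules, and reads common to paralogs could be counted for either.

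**Figure D3:**
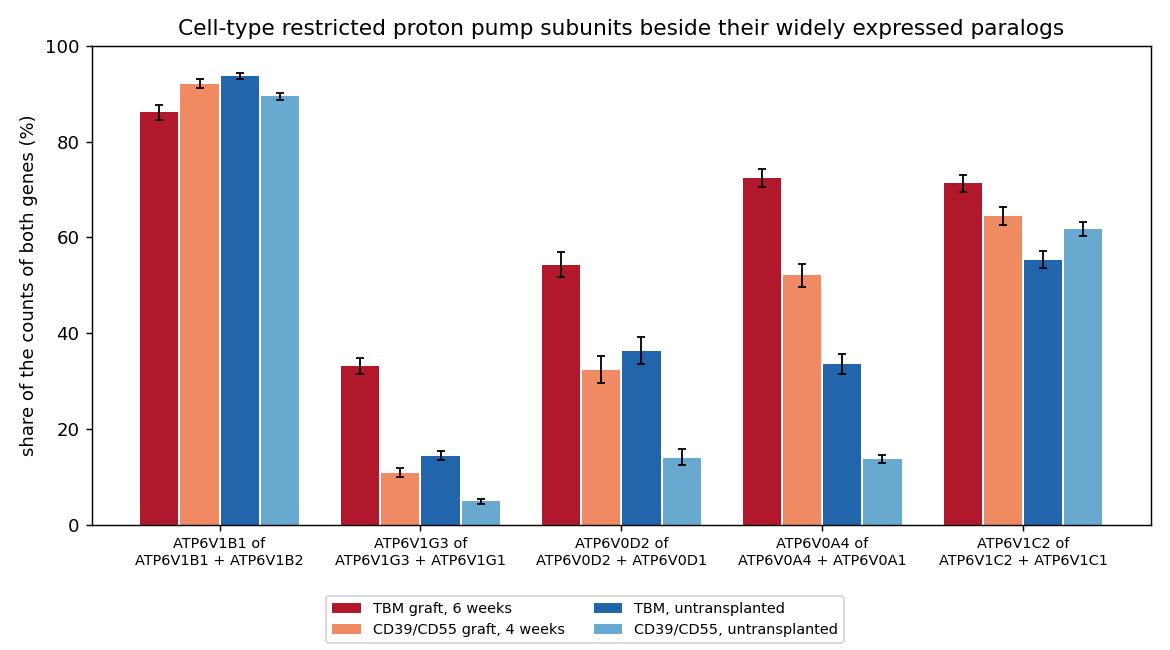
Share of each restricted proton pump subunit in the summed counts of itself and its widely expressed paralog (y axis, percent) in the 4 libraries, with exact 95% binomial intervals. The shares of ATP6V1G3, ATP6V0D2, ATP6V0A4 and ATP6V1C2 were higher in the transplanted than in the untransplanted kidney of both genotypes, for example 33.1% against 14.4% for ATP6V1G3 in TBM. The ATP6V1C2 intervals in CD39/CD55 overlapped. The share of ATP6V1B1 lay between 86.2% and 93.7%.

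FOXI1 (chromosome 16, 53835350 to 53839185) encodes the forkhead factor that in mice switches on the pump subunits and anion exchangers of intercalated cells. It had 566 counts (54.7 scaled CPM) in the TBM graft and 477 (38.6) in the CD39/CD55 graft, against 257 (20.3) and 182 (13.3) in the untransplanted TBM and CD39/CD55 kidneys. Both transplanted kidneys were above both untransplanted ones, and every neighbouring pair of levels was separated beyond counting error. The ratio was 2.69-fold in TBM (log2 ratio 1.43, 1.21 to 1.65) and 2.90-fold in CD39/CD55 (1.54, 1.29 to 1.79). Of the 9 genes, it had the transplantation ratios that differed least between the genotypes (difference of -0.11, TBM minus CD39/CD55, with a 95% Wald counting interval of -0.44 to 0.22).

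HMX2 (chromosome 14, 132691108 to 132699477) encodes a homeobox factor known from inner ear development in mice. It had 28 counts (2.71 scaled CPM) in the TBM graft and 86 (6.95) in the CD39/CD55 graft, against 70 (5.53) and 0 in the untransplanted TBM and CD39/CD55 kidneys. For the count of 0 in the last library, the floor of 3 counts is 0.219 scaled CPM and the upper limit of the exact 95% interval is 0.269. In CD39/CD55 it was therefore at least 31.8-fold higher in the transplanted kidney, taking 3 counts as the floor of the untransplanted library, while the exact 95% interval of the log2 ratio begins at 4.66, below that floor's 4.99. In TBM the log2 ratio was -1.02 (-1.72 to -0.38), which sat at the 2-fold limit and was no longer called with total-count scaling (-0.96) or a prior count of 2 (-0.99). The order of its libraries resembled that of SLC26A4, with the CD39/CD55 graft and the untransplanted TBM kidney high and the untransplanted CD39/CD55 kidney lowest.

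RHCG (chromosome 7, 55046244 to 55071504) encodes an ammonia channel of intercalated and principal cells that serves urinary ammonia excretion. It had 267 counts (25.8 scaled CPM) in the TBM graft and 312 (25.2) in the CD39/CD55 graft, against 346 (27.3) and 1197 (87.2) in the untransplanted TBM and CD39/CD55 kidneys. The untransplanted CD39/CD55 kidney alone was high, and of the other 3 levels no neighbours differed beyond counting error. The log2 ratio of transplanted over untransplanted kidney was accordingly -0.08 (-0.32 to 0.15) in TBM and -1.79 (-1.97 to -1.61) in CD39/CD55. RHBG, its basolateral relative, had 179 and 170 counts in the TBM and CD39/CD55 grafts, against 128 and 440 in the untransplanted ones, and so was also highest in the untransplanted CD39/CD55 kidney.

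Between genotypes, the untransplanted kidneys differed most in SLC26A4, HMX2 and RHCG. Of the 9 genes, 3 were called higher and 1 lower in the untransplanted TBM kidney than in the untransplanted CD39/CD55 kidney, beside 8.16% and 7.89% of all genes. The higher ones were SLC26A4 (log2 ratio 2.72, 2.40 to 3.08), ATP6V1G3 (1.36, 1.17 to 1.55) and HMX2, at least 25.3-fold higher, and the lower one was RHCG (-1.67, -1.85 to -1.50). ATP6V1B1 was the closest between these kidneys, with a log2 ratio of -0.08 (-0.14 to -0.02).

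Between the transplanted kidneys, 3 genes were called higher and 2 lower in TBM than in CD39/CD55, beside 11.0% of all genes called higher and 11.0% called lower. SLC4A9 was 5.13-fold higher (log2 ratio 2.36, 1.78 to 3.03), ATP6V1G3 3.19-fold (1.67, 1.51 to 1.84) and ATP6V0D2 2.59-fold (1.37, 1.19 to 1.56). SLC26A4 (-1.25, -1.51 to -0.999) and HMX2 (-1.35, -2.03 to -0.73) were lower. Levels of RHCG differed by a log2 ratio of 0.03 (-0.21 to 0.27). These comparisons share libraries with those of transplantation, so they restate the same counts from another side.

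**Figure D4:**
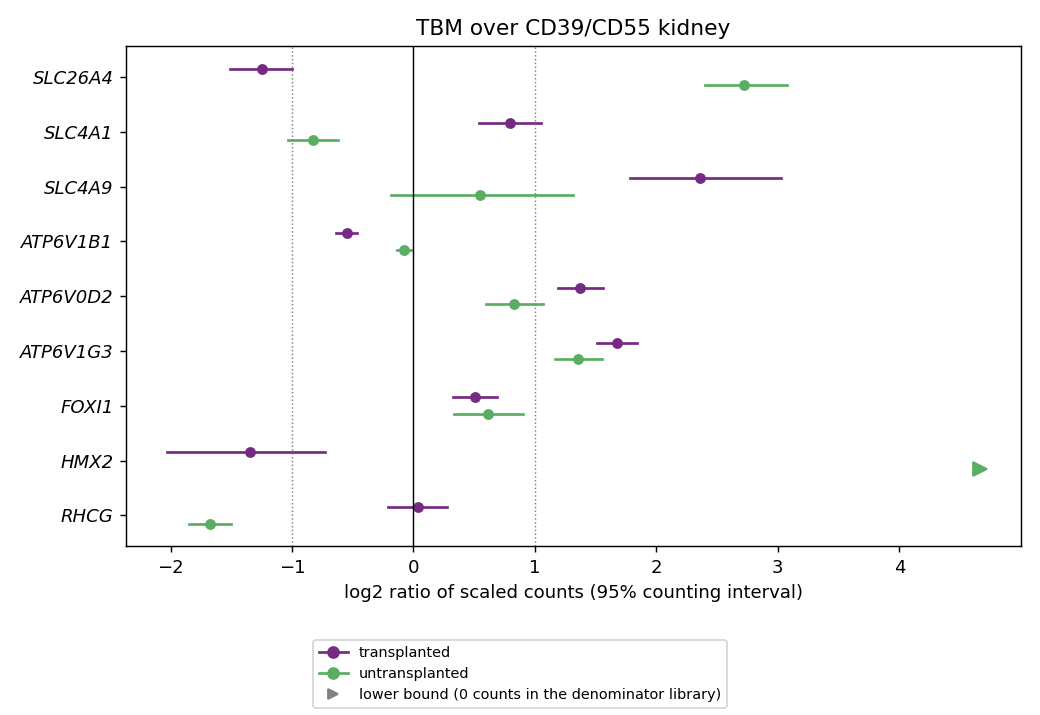
Log2 ratio of scaled counts of TBM over CD39/CD55 kidney (x axis) for each gene (y axis), in the transplanted and the untransplanted pair, with exact 95% counting intervals. Dotted lines mark 2-fold and the arrowhead is a lower bound against 3 counts. ATP6V1G3 was called higher in both pairs, whereas SLC26A4 was lower in the transplanted pair (-1.25) and higher in the untransplanted pair (2.72).

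Transplanted and untransplanted kidneys were also compared over both genotypes, 2 libraries against 2, with edgeR's quasi-likelihood test and Benjamini-Hochberg adjustment over 18168 genes, in which 225 genes (1.24%) rose and 493 (2.71%) fell. With genotype as a block, which sets each graft against the untransplanted kidney of its genotype, 1124 rose and 1681 fell. The test is read for genes outside the set, and none of its values for the 9 genes is given, since they were chosen on these libraries. The libraries on each side of this test differ in genotype.

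Other genes of intercalated cells, a list of 26 of which 24 were measured and tested, gave 1 that rose and 1 that fell in the same test. KCNMA1, the pore subunit of the large-conductance calcium-activated potassium channel through which intercalated cells secrete potassium, rose, with 639 and 342 counts in the TBM and CD39/CD55 grafts, against 70 and 88 in the untransplanted ones (log2 fold change 2.90, SE 0.50, adjusted p = 0.00825 by edgeR). The channel is also made by smooth muscle. ATP12A, the non-gastric proton-potassium ATPase, fell, with 36 and 19 counts against 116 and 236 (-2.40, SE 0.57, adjusted p = 0.0349 by edgeR). Its call was lost without the untransplanted CD39/CD55 library (adjusted p = 0.159 by edgeR, with a range of 0.00133 to 0.159 over the alternatives), and without the CD39/CD55 graft library 6 genes of the list rose, in a fit that called 1051 of all genes higher and 1349 lower. With genotype as a block, 3 genes of the list rose and 2 fell.

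Within single pairs, 7 of these 24 genes were called higher and 1 lower in the TBM graft, beside 15.9% and 16.3% of all genes. In the CD39/CD55 graft 3 were called higher and 6 lower, beside 13.2% and 13.7% of all genes. The median log2 ratios of the list were 0.44 in TBM and 0.15 in CD39/CD55. Singled out after their values were seen, the transcription factor gene TFCP2L1, which patterns collecting duct cell types in mice, had 741 and 447 counts in the TBM and CD39/CD55 grafts, against 381 and 284 in the untransplanted ones, and DMRT2, a transcription factor gene of mouse type A cells, had 199 and 121, against 79 and 81. Both were called higher in TBM (log2 ratios 1.25 and 1.62) but not in CD39/CD55 (0.80 and 0.73). Neither passed the test over both genotypes (adjusted p = 0.206 and 0.175 by edgeR). Named at the same point, the 6 genes called lower in the CD39/CD55 graft were RHBG, BSND, SLC26A7, AQP6, CA12 and ATP12A. The most abundant of the list by scaled CPM were ADGRF5, CA12 and ATP6V1C2. ADGRF5, an adhesion receptor of mouse intercalated and endothelial cells, had 3944 and 1681 counts in the TBM and CD39/CD55 grafts, against 1143 and 1580 in the untransplanted ones (adjusted p = 0.182 by edgeR). The membrane carbonic anhydrase gene CA12 had 1558 and 1210, against 3253 and 3573 (adjusted p = 0.209 by edgeR), and the pump subunit gene ATP6V1C2 had 1799 and 1819, against 1666 and 2461.

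Of 18 other proton pump subunits and accessory genes measured, 17 were tested and none passed edgeR's test, with 2 lower at an unadjusted p under 0.05, 2 called lower by DESeq2 and none by limma voom. Their median log2 ratios were -0.26 in TBM and -0.72 in CD39/CD55. ATP6V0C, with ATP6V1G1 and ATP6V0A1 among the 3 most abundant, had 1773 and 2183 counts in the TBM and CD39/CD55 grafts, against 2593 and 6506 in the untransplanted ones. Among 24 tested acid-base genes of other nephron segments, 2 fell and none rose. SLC9A3, the proximal sodium-proton exchanger NHE3, fell (log2 fold change -2.12, SE 0.43, adjusted p = 0.0185 by edgeR), a call lost without the untransplanted CD39/CD55 library (adjusted p = 0.0641 by edgeR, range 0.000103 to 0.0641). The anion exchanger gene SLC26A1 fell (-2.50, SE 0.49, adjusted p = 0.0161 by edgeR). SLC4A4, the proximal sodium-bicarbonate cotransporter, had 1881 and 8360 counts in the TBM and CD39/CD55 grafts, against 10232 and 19607 in the untransplanted ones, and did not pass (adjusted p = 0.242 by edgeR). The ammonia-generating and gluconeogenic genes GLUD1 and PCK1 did not pass either, with 1514 and 2761 counts of GLUD1 in the transplanted kidneys, against 4011 and 6881, and 2834 and 47943 of PCK1, against 31480 and 90982, in the same order of genotypes.

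**Figure D5:**
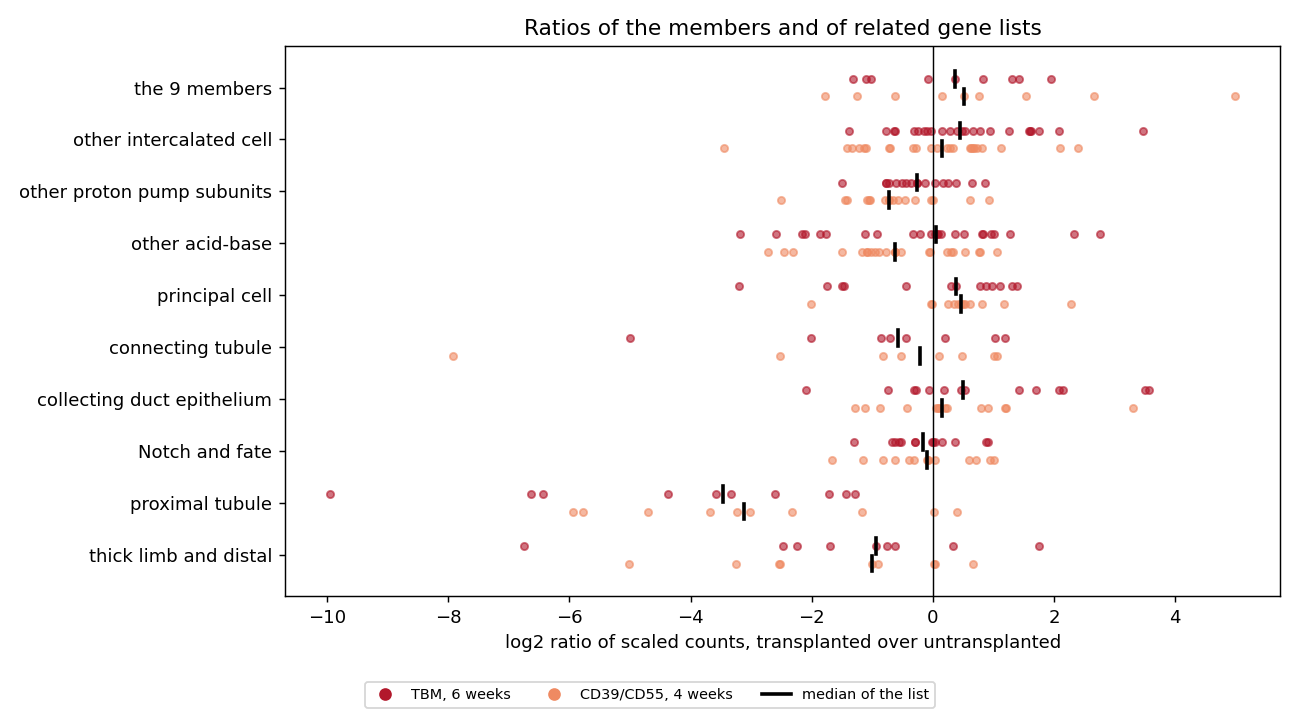
Log2 ratio of transplanted over untransplanted kidney (x axis) for the 9 genes and for related gene lists (y axis); each point is 1 gene, colours are the genotypes and black ticks the medians. Genes with no count in a library are drawn with a prior count of 0.5, except HMX2, drawn at its lower bound. Medians of the other intercalated cell genes were 0.44 and 0.15 in TBM and CD39/CD55, and those of proximal tubule genes -3.46 and -3.12.

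Principal cells, the neighbours of intercalated cells in the collecting duct, were read from 15 markers. Of 13 tested, none passed edgeR's test, with 1 higher and 1 lower at an unadjusted p under 0.05 and none called by DESeq2 or limma voom, and the median log2 ratios were 0.37 in TBM and 0.47 in CD39/CD55. Defining water channel genes were scarce in these libraries: AQP2 had 2 and 17 counts in the TBM and CD39/CD55 grafts, against 27 and 14 in the untransplanted ones, and AQP3 and AQP4 had at most 1 count in any library. The markers summed to 378 and 284 scaled CPM in the TBM and CD39/CD55 grafts, against 275 and 224 in the untransplanted ones. NR3C2, GATA3 and KCNJ1 were the most abundant of them. Single markers were mixed: in TBM 3 were called higher and 4 lower, beside 15.9% and 16.3% of all genes. In CD39/CD55 2 were called higher and 1 lower, beside 13.2% and 13.7%. SCNN1G (104 and 146 counts, against 354 and 106) and HSD11B2 (8 and 23, against 34 and 11) were highest in the untransplanted TBM kidney. SCNN1A (146 and 132, against 72 and 104) was highest in the TBM graft. The part of changed cell proportions in the values of the 9 genes was not tested.

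Among themselves the 9 genes fell into unlike patterns. By the Euclidean distance between log2 scaled CPM profiles centred on their own means over the 4 libraries, ATP6V0D2 and ATP6V1G3 were the nearest pair (0.56), followed by SLC4A9 with ATP6V0D2 (0.73) and ATP6V0D2 with FOXI1 (0.78), and SLC4A1 and RHCG were 0.94 apart. SLC4A1 and ATP6V1B1 were 1.16 apart. Genes outside the set nearest to its median profile, of 13254 with a total of at least 50 counts and a symbol other than a provisional one, were KIAA0556 (0.14), CLOCK (0.15), POU2F1 (0.16), PLEKHH2 (0.16) and FBXW8 (0.17). CLOCK, a circadian transcription factor gene, had 782 and 451 counts in the TBM and CD39/CD55 grafts, against 478 and 301 in the untransplanted ones. With 4 libraries many genes share a profile, and these distances are a description only.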

How the data were processed

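The deposited values are raw read counts for each gene symbol, whole numbers with unequal totals, and so without normalization by the authors. Libraries were made with a Lexogen QuantSeq kit, per the labels' protocols, and mapping and counting involved Bowtie2, bedtools and Sscrofa11.1, per the submitters' processing notes. Versions, the use of strand, the treatment of reads matching several genes or the primate recipient, and the part of the transcript that was read are unstated: not given in the sources used here. No unique molecular identifiers are mentioned.

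Each file had 26965 lines, and lines of the 81 repeated symbols were summed, giving 26466 symbols. All symbols are in the RefSeq table of Sscrofa11.1, which gave the coordinates. No library was a copy of another (lowest Spearman correlation between libraries 0.929). The libraries' effective sizes used TMM factors of 0.957 to 1.07. Log2 ratios used a prior count of 0.5 and exact conditional binomial intervals (Clopper-Pearson, scipy 1.17.1). edgeR 4.0.16 gave the quasi-likelihood test (2 residual degrees of freedom); the SE of a log2 fold change is its size divided by the square root of the F statistic and restates the test. The number of animals behind each genotype is unknown from the labels. DESeq2 1.42.0 and limma 3.58.1 were alternatives. Ratio and test were checked on simulated data.

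The members and lists were chosen with earlier results of these data known. Genes named from other lists are those past edgeR's test and the 3 most abundant by mean scaled CPM, except where a later choice is stated. Single markers of other cell types, paralogs of the pump subunits, and RHBG were also named after their values were seen; some genes of these lists are not reported here. CA2, CA15, ATP6V0E2, CA1, CA13, PAX8 and GYPB matched no symbol and were not analysed here.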

Additional observations from a re-analysis of the deposited data

Results flagged for a closer look

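Transplantation ratios of SLC26A4, HMX2 and SLC4A1 had opposite signs in the genotypes. The share of all genes with opposite signs is not given here, so whether this is unusual cannot be read from these genes. The difference between groups was not tested, since each group had 1 library. For SLC26A4 the log2 ratio of transplanted over untransplanted kidney was -1.32 in TBM and 2.65 in CD39/CD55, a difference of -3.97 (95% Wald counting interval -4.39 to -3.56). For HMX2 the ratio was -1.02 in TBM and at least 4.99 in CD39/CD55, taking 3 counts as the floor of the untransplanted library. The difference on that floor was -6.01 or lower, which leaves out the counting error of the other libraries. With that error, the exact 95% interval was -1.72 to -0.38 in TBM and began at 4.66 in CD39/CD55. For SLC4A1 the ratio was 0.36 in TBM, below 2-fold, and -1.25 in CD39/CD55, a difference of 1.62 (1.29 to 1.94), and its counts may hold reads of an overlapping noncoding locus.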

How the results depend on the processing

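Under 5 alternatives of scaling, filter and prior count, 176 of 178 member ratios stayed within their counting interval. The exceptions were the ATP6V1B1 ratios with total-count scaling (-0.50 for transplantation in CD39/CD55 and -0.65 between transplanted kidneys), and total-count scaling moved the median log2 ratio of all genes in the CD39/CD55 pair by 0.13. HMX2 lost its call in TBM with total-count scaling and with a prior count of 2. In the test over both genotypes, 225 genes rose and 493 fell, against 1124 and 1681 with genotype as a block, 413 and 860 by DESeq2's Wald test, and 543 and 1035 with no filter. With genotype as a block, 3 of the other intercalated cell genes rose and 2 fell. The causes were not tested.

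Leaving out 1 library at a time, with 1 sample left on a side and assumed to vary like the others, gave 186 to 1051 genes that rose and 392 to 1349 that fell, the highest of each without the CD39/CD55 graft library. Other intercalated cell genes that rose ranged between 1 and 6, and those that fell between 0 (without the untransplanted CD39/CD55 library) and 1.

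The labels give no replicate numbers that groups share, and the genotype is the only pairing of libraries, taken up by the fit with genotype as a block. With 1 library per group, leaving out a library removes a single-pair comparison altogether. Low counts limit SLC4A9 and HMX2 most, and a difference under about the width of their intervals was not detectable at this depth.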

Other observations

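The epithelium around intercalated cells was read from 2 further lists. Of 14 collecting duct epithelium genes tested, 2 rose and none fell in edgeR's test over both genotypes. Among them, the keratin gene KRT7 had 860 and 528 counts in the TBM and CD39/CD55 grafts, against 88 and 253 in the untransplanted ones (log2 fold change 2.31, SE 0.53, adjusted p = 0.0312 by edgeR), a call lost without the untransplanted TBM library (adjusted p = 0.112 by edgeR, range 3.9e-05 to 0.112 over the alternatives). The RefSeq table of Sscrofa11.1 annotates the KRT7 entry as a long noncoding RNA, and whether its reads come from a coding transcript was not tested. EPCAM had 1154 and 1405 counts in the TBM and CD39/CD55 grafts, against 1248 and 826 in the untransplanted ones, and did not pass.

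Of 8 connecting tubule genes, KLK1, the tissue kallikrein gene, fell and none rose. It had 56 and 9 counts in the TBM and CD39/CD55 grafts, against 2213 and 2539 in the untransplanted ones (log2 fold change -5.89, SE 0.76, adjusted p = 0.00207 by edgeR). The calcium channel gene TRPV5, singled out after its values were seen, had 889 and 410 counts, against 475 and 226, and did not pass (adjusted p = 0.256 by edgeR). In TBM 2 of the 8 genes were called higher and 2 lower, beside 15.9% and 16.3% of all genes. CD39/CD55 also had 2 higher and 2 lower, beside 13.2% and 13.7%. CALB1 was called lower in TBM and higher in CD39/CD55, and TRPV6 the reverse. Median log2 ratios of the 8 genes were -0.58 in TBM and -0.21 in CD39/CD55. None of 14 Notch pathway and fate genes, which include regulators of the choice between principal and intercalated cells in mice, passed edgeR's test, none had an unadjusted p under 0.05, and none was called by DESeq2 or limma voom. Their median log2 ratios were -0.16 in TBM and -0.09 in CD39/CD55.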
